A study of Capra hircus with 6 samples.

Results

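Polycomb repressive complex 2 (PRC2) was examined through the genes of 10 of its subunits among the 28907 rows of a count table of medio-basal hypothalamus RNA from adult Alpine goats (Capra hircus). The genes were found by their symbols, and all 10 were present. They are EZH2 and EZH1 (catalytic subunits), EED, SUZ12, RBBP4 and RBBP7 (core subunits), and JARID2, AEBP2, MTF2 and PHF19 (accessory subunits). The complex was selected on the follicular against anestrus difference in EZH2 counts, so the subunits' values in that contrast are given as a description and carry no test.

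The follicular libraries came from goats sampled in January while cycling, in their follicular phase, and the anestrus libraries from goats in mid-May, outside the breeding season. Season and ovarian state therefore differ together between the groups. Per the series' design text, RNA of 5 follicular and 8 anestrus goats was combined at random into 2 equimolar pools per group, so a replicate here is a pool and its spread is not the spread between animals. How many goats each pool holds, and whether 1 goat is in both pools of its group, is not given in the sources used here. Luteal phase libraries were not analysed here.

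PRC2 places methyl groups on lysine 27 of histone H3, a mark associated with silent genes. EZH2 or EZH1 supplies the methyltransferase, EED binds the mark and stimulates the enzyme, SUZ12 holds the complex together, and RBBP4 and RBBP7 bind histones. Accessory subunits sort the complex into a form with MTF2 or PHF19 and a form with JARID2 and AEBP2. In mammals EZH2 is usually the main methyltransferase of dividing and progenitor cells, and EZH1 is more prominent in cells that no longer divide.

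The 4 libraries held between 14553821 and 25292678 counts each. Over genes, log2 levels correlated at 0.982 between the follicular pools, at 0.971 between the anestrus pools and at 0.967 to 0.977 between pools of different groups. All 10 markers of arcuate and neighbouring medio-basal neurons had counts enough to be tested, with summed levels of 646 to 877 CPM in follicular pools and 760 to 919 CPM in anestrus pools. Levels are given as CPM, the counts divided by the TMM-scaled library total. Counts were not divided by transcript length, so levels are compared between pools for 1 gene at a time and the subunits are not put in order of abundance.

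EZH2 was far lower in the follicular pools than in the anestrus pools, and the other catalytic subunit, EZH1, was at similar levels in both. The deposited counts of EZH2 (gene 102190101) were 834 in follicular pool 1 and 457 in follicular pool 2, against 3072 in anestrus pool 1 and 4545 in anestrus pool 2. As levels these were 32.8 and 26.5 CPM in the follicular pools, against 215 and 252 CPM in the anestrus pools. The groups lay far apart beside the spread of their pools, the higher pool being 1.24 times the lower in the follicular phase and 1.17 times in anestrus. Over genes with a mean of at least 5 CPM the medians of this ratio were 1.14 and 1.20. The follicular pools of EZH2 were thus farther apart than the median. The log2 fold change, follicular minus anestrus, was -2.98 ± 0.19 (SE), which is 7.86-fold lower in the follicular phase. By its size it ranked 17 among the 16756 genes tested, and 12 genes had a more negative value. In bulk tissue a smaller number of cells that transcribe a gene and less of its RNA per cell cannot be told apart.

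EZH1 (gene 102189343) was at 111 and 110 CPM in the follicular pools, against 105 and 132 CPM in the anestrus pools. The follicular values fell between the anestrus values, and the log2 fold change was -0.10 ± 0.17. Its 95% interval in the edgeR fit ran from -0.48 to 0.28. Without anestrus pool 2 the log2 fold change was 0.12, so its sign depends on that pool.

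**Figure D1:**
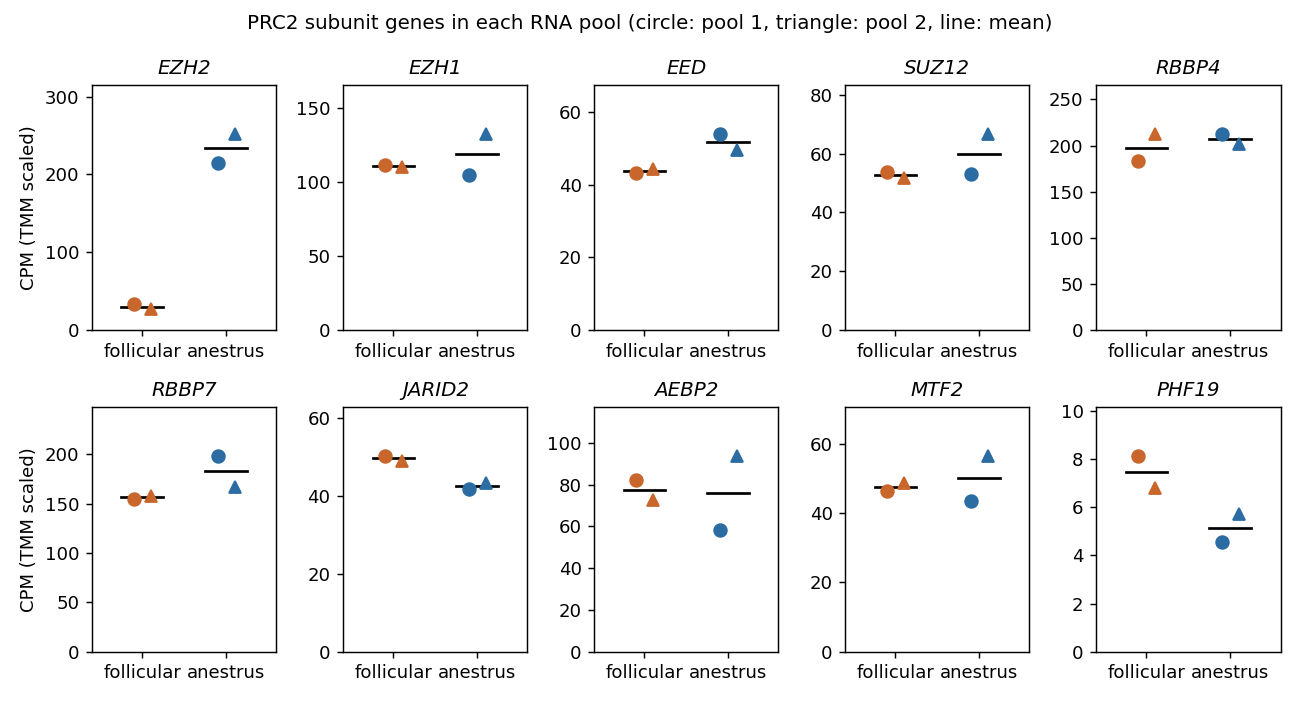
Level of each PRC2 subunit gene in CPM (vertical axes start at 0 and differ between panels) in the 2 follicular and the 2 anestrus pools, with circles for pool 1, triangles for pool 2 and a line at each group mean. EZH2 averaged 29.7 CPM in follicular pools and 234 CPM in anestrus pools, while the group means of the other subunits lay much closer together.

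Both methyltransferase genes are read in the same library, so their ratio does not depend on how libraries are scaled. EZH2 supplied 22.8% of the joint EZH1 and EZH2 counts in follicular pool 1 (exact 95% Clopper-Pearson interval 21.4 to 24.2%) and 19.4% in follicular pool 2 (17.8 to 21.1%). In anestrus its share was 67.3% in pool 1 (65.9 to 68.6%) and 65.6% in pool 2 (64.5 to 66.7%). The intervals cover counting error only. The share averaged 21.1 ± 2.39% in the follicular phase and 66.4 ± 1.17% in anestrus (SD, n = 2 pools each), a difference of -45.3 percentage points. Thus EZH1 took most of the joint counts in both follicular pools, and EZH2 took most of them in both anestrus pools. The share of counts is not a share of molecules, since the transcripts' lengths were not used.

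Among the core subunits, EED and RBBP7 were slightly lower in both follicular pools, and SUZ12 and RBBP4 overlapped between groups. EED (gene 102191771) was at 43.3 and 44.4 CPM in the follicular pools, against 54.0 and 49.5 CPM in the anestrus pools. Its log2 fold change was -0.24 ± 0.18, with a 95% interval from -0.64 to 0.16. RBBP7 (gene 102174921) was at 155 and 158 CPM in the follicular pools, against 198 and 166 CPM in the anestrus pools. For RBBP7 the groups did not overlap, although anestrus pool 2 was close to the follicular values, and the log2 fold change was -0.22 ± 0.16. SUZ12 (gene 102179978) was at 53.6 and 51.8 CPM in the follicular pools, against 53.2 and 66.7 CPM in the anestrus pools. Anestrus pool 2 stood above the other 3 pools, and without it the log2 fold change of SUZ12 was 0.03, beside -0.19 ± 0.19 with all pools. RBBP4 (gene 102185128) was at 183 and 213 CPM in the follicular pools, against 212 and 201.8 CPM in the anestrus pools. Here the follicular pools held both the lowest and the highest value, and the log2 fold change of -0.07 ± 0.16 became 0.06 without follicular pool 1. RBBP4 and RBBP7 are close paralogues, and how reads that map to several places were counted is not given in the sources used here, so the split of reads between them is uncertain.

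The accessory subunits did not share a direction. JARID2, a DNA-binding subunit that helps to bring PRC2 to chromatin, was at 50.4 and 49.1 CPM in the follicular pools, against 42.0 and 43.4 CPM in the anestrus pools (gene 102184681). The groups of JARID2 did not overlap and their pools were tight, with a log2 fold change of 0.22 ± 0.18. PHF19 (gene 102179948), which reads methylated lysine 36 of histone H3 through its Tudor domain, was the least counted subunit, with 207 and 117 counts in the follicular pools, against 65 and 103 in the anestrus pools. In levels it was at 8.14 and 6.79 CPM in the follicular pools, against 4.55 and 5.71 CPM in the anestrus pools. The follicular values were the higher, the log2 fold change was 0.54 ± 0.33, and its 95% interval from -0.19 to 1.27 was the widest of the 10.

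MTF2 (gene 102188821), the PHF19 relative that binds DNA rich in unmethylated CpG, was at 46.4 and 48.7 CPM in the follicular pools, against 43.6 and 56.6 CPM in the anestrus pools. Its follicular values fell between the anestrus values, and the log2 fold change of -0.08 ± 0.20 became 0.17 without anestrus pool 2. AEBP2 (gene 102168985), a zinc finger subunit that stabilises the complex, was at 82.3 and 72.8 CPM in the follicular pools, against 58.4 and 93.8 CPM in the anestrus pools. The anestrus pools of AEBP2 lay 1.61 times apart, on both sides of the follicular ones. Its log2 fold change of 0.03 ± 0.23 became -0.28 without anestrus pool 1, -0.05 without follicular pool 1 and 0.45 without anestrus pool 2.

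In edgeR's quasi-likelihood test over the whole table, EZH2 was called at an adjusted p under 0.05, lower in the follicular phase, and 0 of the other 9 subunits were called in either direction. The background was 0.203% of genes called in either direction (34 of 16756), with 0.0119% called higher and 0.191% called lower in the follicular phase. At an unadjusted p under 0.05 there was 1 subunit of the 10, again EZH2, against 1432 of the 16756 genes tested. Neither DESeq2 nor limma-voom called any of the other 9. Since the contrast was known when the genes were chosen, nothing is read from these counts. All 10 subunits passed the filter on low counts. The other 9 had 6 negative and 3 positive log2 fold changes with a median of -0.08, beside -0.00067 over all genes tested. Levels did not overlap between groups for 5 of the 10 subunits, EZH2, EED, RBBP7, JARID2 and PHF19, where 38.3% of all genes tested showed no overlap.

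**Figure D2:**
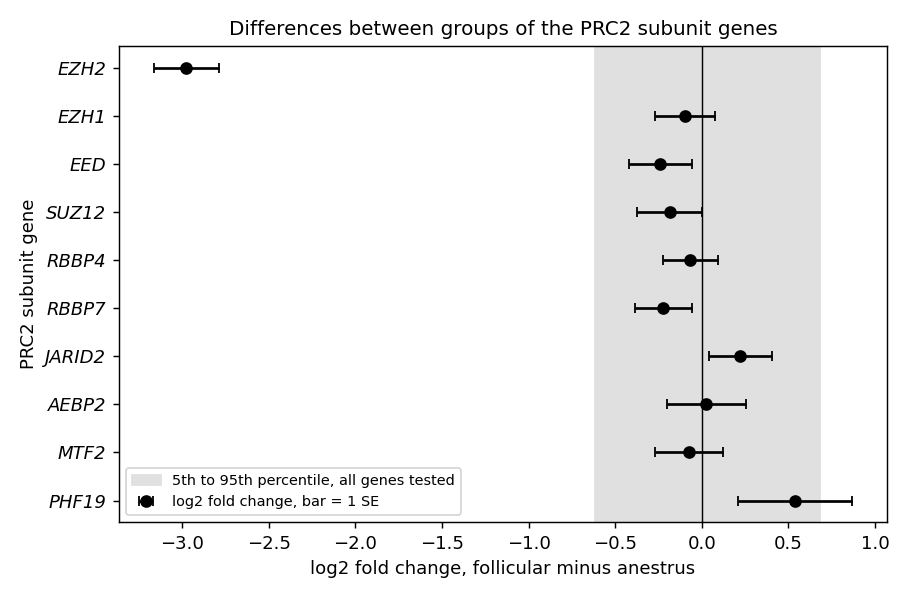
Log2 fold change, follicular minus anestrus, of each PRC2 subunit gene with a bar of 1 SE on each side, over a grey band from the 5th to the 95th percentile of all genes tested (-0.62 to 0.68). EZH2 lies at -2.98, and the other 9 subunits lie inside the band, from -0.24 for EED to 0.54 for PHF19.

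The summed level of the 9 subunits other than EZH2 was 733 and 754 CPM in the follicular pools, against 771 and 816 CPM in the anestrus pools. EZH2 made up 4.28 and 3.40% of all counts of the 10 genes in the follicular pools, against 21.8 and 23.6% in the anestrus pools. The relation of EZH2 to each partner was then read within each pool. Per 100 SUZ12 counts there were 61.1 and 51.2 EZH2 counts in the follicular pools, against 405 and 378 in the anestrus pools. Per 100 EED counts there were 75.8 and 59.7 in the follicular pools, against 398 and 509 in the anestrus pools. For each of the 9 partners both follicular pools lay below both anestrus pools. The fold of this ratio was smallest for EED, 6.69-fold lower in the follicular phase, and was largest for PHF19, 11.5-fold lower. All 9 ratios share the EZH2 counts on which the complex was selected. The partners' own log2 fold changes were only -0.24 to 0.54, so the ratios restate 1 difference and are not separate results.

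**Figure D3:**
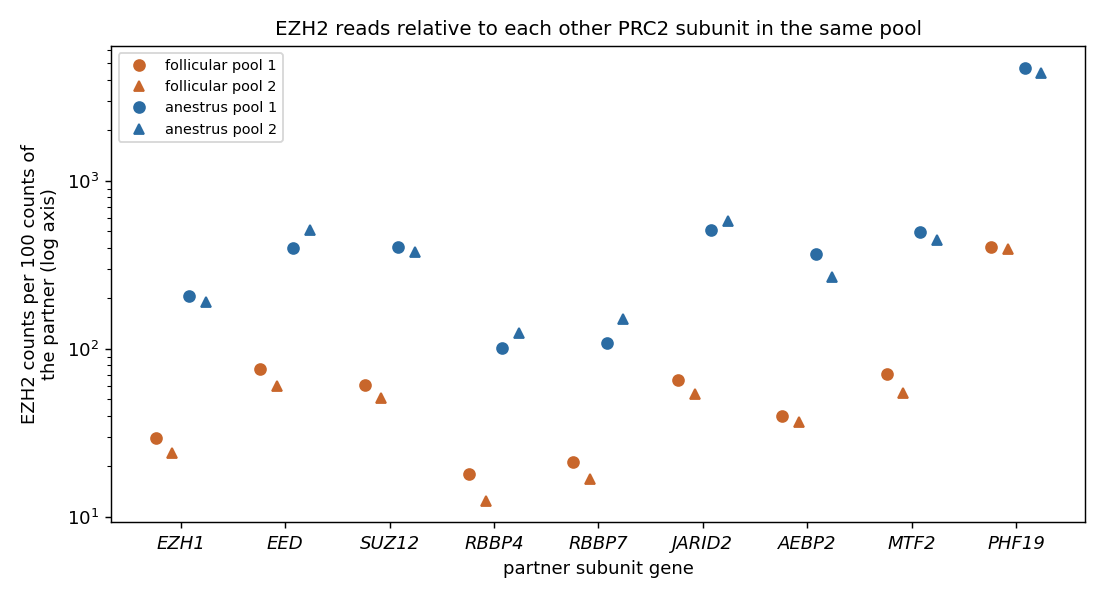
EZH2 counts per 100 counts of each other PRC2 subunit gene in the same pool (log axis), with orange follicular and blue anestrus pools, circles for pool 1 and triangles for pool 2. For every partner the follicular pools lie below the anestrus pools, for EZH1 at 29.5 and 24.1 against 205 and 191. Every ratio has the same EZH2 counts as its numerator, so the panels restate the EZH2 difference.

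How far pools of 1 group differed was also compared among the subunits. In the follicular phase the higher pool was 1.01 to 1.24 times the lower for the 10 genes, and in anestrus 1.04 to 1.61 times. Over the 12849 genes with a mean of at least 5 CPM the median of this ratio was 1.14 in the follicular phase and 1.20 in anestrus. EZH2, EZH1, SUZ12, JARID2, AEBP2, MTF2 and PHF19, 7 of the 10, were higher in anestrus pool 2 than in anestrus pool 1 by 1.04 to 1.61 times. The other 3, EED, RBBP4 and RBBP7, were lower in anestrus pool 2, with ratios of 1.09, 1.05 and 1.19. These ratios lie below the median of 1.20, so nothing is read from the directions about the subunits moving together or apart.

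The other genes of the Polycomb system and of chromatin and the cell cycle were taken from 9 lists, in which 102 genes were tested. Of these, 0 were called in either direction in edgeR, against the 0.203% of all genes. An unadjusted p under 0.05 was found for 4 of the 102, against 1432 of the 16756 genes tested. DESeq2 called 1 of the 102 (DPF1) and limma-voom called 0. Their median log2 fold change was -0.09, beside -0.00067 over all genes.

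PRC1, the sister complex that ubiquitinates histone H2A and binds the mark that PRC2 makes, had 25 genes tested, with 12 positive and 13 negative log2 fold changes, a median of -0.07 and 0 called. One of them had an unadjusted p under 0.05, PCGF2, a RING finger subunit of canonical PRC1. PCGF2 was at 54.9 and 51.9 CPM in the follicular pools, against 78.2 and 68.7 CPM in the anestrus pools, giving a log2 fold change of -0.46 ± 0.17 (adjusted p = 0.477, edgeR). CBX6, a chromodomain subunit of PRC1, had a log2 fold change of 0.30 ± 0.16 (adjusted p = 0.681, edgeR).

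Further PRC2 accessory genes had 3 members tested, LCOR, PHF1 and LCORL, with log2 fold changes of -0.11 ± 0.20, -0.09 ± 0.18 and 0.07 ± 0.27, of which 0 were called and 0 had an unadjusted p under 0.05. Without anestrus pool 2 that of LCOR was 0.24, without anestrus pool 1 those of PHF1 and LCORL were 0.07 and -0.23, and without follicular pool 2 they were 0.04 and -0.08. The list of enzymes that remove methyl groups from lysine 27 or acetylate it had 4 genes tested, 0 called and 0 with an unadjusted p under 0.05. The demethylase KDM6A was at 68.1 and 69.6 CPM in the follicular pools, against 62.5 and 90.4 CPM in the anestrus pools. Its follicular values fell between the anestrus values, and its log2 fold change of -0.15 ± 0.20 became 0.18 without anestrus pool 2. The acetyltransferase genes CREBBP and EP300 had log2 fold changes of -0.26 ± 0.17 and -0.11 ± 0.18, and EP300 had 0.10 without anestrus pool 2. PR-DUB, the complex that takes ubiquitin off histone H2A, had 8 genes tested, 0 called and 0 with an unadjusted p under 0.05, and its catalytic subunit gene BAP1 had a log2 fold change of 0.39 ± 0.20 (adjusted p = 0.656, edgeR). FOXK1 and ASXL1, also of PR-DUB, had 0.24 ± 0.18 and -0.18 ± 0.18.

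SWI/SNF remodellers, which act against Polycomb silencing, had 17 genes tested, 0 called and 1 with an unadjusted p under 0.05. That gene was DPF1, a subunit of the form found in neurons, at 27.6 and 37.3 CPM in the follicular pools, against 19.3 and 12.6 CPM in the anestrus pools. The log2 fold change of DPF1 was 1.03 ± 0.27 (adjusted p = 0.274, edgeR). ACTL6B, another subunit of the neuronal form, had 0.38 ± 0.19, and BRD9, of the non-canonical form, had 0.50 ± 0.25. Neuron markers were also on the higher side in the follicular phase, with 9 of 9 log2 fold changes positive, a median of 0.35, 0 called and 3 with an unadjusted p under 0.05. Their summed level was 4912 to 5623 CPM in the follicular pools and 4160 to 4350 CPM in the anestrus pools, and their part in the values of DPF1 and ACTL6B was not tested.

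**Figure D4:**
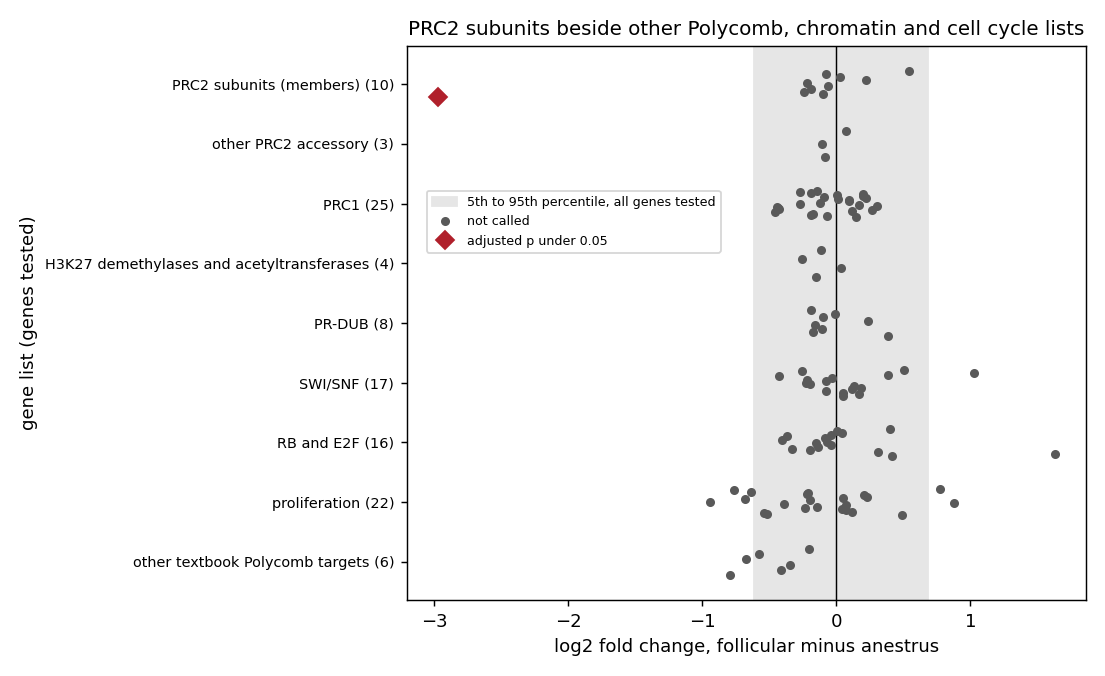
Log2 fold change, follicular minus anestrus, of every tested gene of the PRC2 subunits and of the further lists with at least 3 genes tested, 1 point per gene, with the number tested in brackets, a red diamond for a gene with an adjusted p under 0.05 and a grey band from the 5th to the 95th percentile of all genes. EZH2, on whose difference the complex was selected, is the 1 diamond, at -2.98, so nothing is read from its mark. The other lists hold none, where 0.203% of all genes tested were called.

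EZH2 is a textbook target of the E2F factors, which switch on genes for DNA replication when the RB proteins release them. The RB and E2F list had 16 of 19 genes tested, 0 called and 1 with an unadjusted p under 0.05, with a median log2 fold change of -0.06. The 1 gene was E2F2, an activating E2F, which had only 22 and 15 counts in the follicular pools, against 3 and 6 in the anestrus pools. Its log2 fold change was 1.63 ± 0.69 (adjusted p = 0.542, edgeR). E2F5, a repressive E2F, and RBL1, the RB relative p107, had log2 fold changes of -0.33 ± 0.20 and -0.40 ± 0.26, with adjusted p of 0.73 and 0.747 (edgeR). Any part of the E2F factors in the EZH2 values was not tested.

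Proliferation genes had 22 of 24 tested, 10 positive and 12 negative, with a median of -0.17, 0 called and 1 with an unadjusted p under 0.05. PCNA, the sliding clamp of DNA polymerase, was that gene, at 48.9 and 53.1 CPM in the follicular pools, against 77.5 and 70.8 CPM in the anestrus pools. Its log2 fold change was -0.54 ± 0.17 with an adjusted p of 0.366 (edgeR). TPX2, a spindle assembly factor, and UHRF1, a partner of the maintenance DNA methyltransferase, had -0.64 ± 0.32 and 0.78 ± 0.36. MKI67, the usual marker of cycling cells, was at 0.71 and 1.80 CPM in the follicular pools, against 0.49 and 1.22 CPM in the anestrus pools. TOP2A, a topoisomerase of dividing cells, was at 1.46 and 2.21 CPM in the follicular pools, against 1.54 and 3.61 CPM in the anestrus pools. The groups of MKI67 and TOP2A overlapped, and neither was called (these were named for their role, after their values were seen). Groups did not overlap for 8 of the 22 genes tested, where 38.3% of all genes tested showed no overlap. Of those, PCNA, TPX2, CDK1 (-0.68 ± 0.39), CCNB2 (-0.94 ± 0.71), CCNA2 (-0.39 ± 0.21) and MCM6 (-0.15 ± 0.18) were lower in the follicular phase. UHRF1 and CCNB1 (0.87 ± 0.62) were higher. CCNB2 had only 6 and 9 counts in the follicular pools, against 9 and 14 in the anestrus pools. CCNB1 had 26 and 19, against 5 and 14. The share without overlap was near that of all genes, so nothing is read from these directions. The cyclin genes, CDK1 and MCM6 were also named after their values were seen. The summed level of the list was 273 and 284 CPM in the follicular pools, against 328 and 300 CPM in the anestrus pools.

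Genes that PRC2 is known to keep silent were looked at last. Of 37 HOX genes matched, 26 had 0 counts in all 4 pools, and their summed level was 1.69 and 1.63 CPM in the follicular pools, against 1.12 and 1.72 CPM in the anestrus pools. HOX transcripts were thus close to the detection limit in all 4 pools. Of 14 other textbook Polycomb targets matched, 6 were tested, 0 were called and 0 had an unadjusted p under 0.05. All 6 log2 fold changes were negative, with a median of -0.50, where 50.1% of all genes tested were negative. The cell cycle inhibitor CDKN2B was at 1.85 and 2.32 CPM in the follicular pools, against 3.08 and 4.11 CPM in the anestrus pools (log2 fold change -0.79 ± 0.42). The developmental factors PAX9 and GATA4 had log2 fold changes of -0.58 ± 0.33 and -0.41 ± 0.24. Groups did not overlap for these 3 of the 6, where 38.3% of all genes tested showed no overlap. They overlapped for FOXC1 (-0.21 ± 0.28), TBX15 (-0.35 ± 0.58) and PAX7 (-0.67 ± 0.82), all named after their values were seen. PAX7 had 34 counts in follicular pool 1 and 2 in follicular pool 2. Nothing is read from the shared sign of the 6 genes.

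Cell type markers differed between the groups beside EZH2. The list of pars tuberalis and anterior pituitary markers, of which 13 were matched and 0 were at 0 counts in all pools, summed to 5550 and 4524 CPM in the follicular pools, against 14725 and 11522 CPM in the anestrus pools. Of 11 tested, 2 were called lower in the follicular phase, TSHB and CGA, the subunits of thyrotropin, and 0 were called higher. An unadjusted p under 0.05 was found for 4 of them, all lower. The log2 fold changes were negative for 9 and positive for 2, LHB (the luteinizing hormone beta subunit) at 1.48 ± 0.74 and GNRHR (the GnRH receptor) at 1.57 ± 1.00, neither of them called (both named after their values were seen). The 11 matched markers other than TSHB and CGA summed to 316 and 225 CPM in the follicular pools, against 393 and 411 CPM in the anestrus pools. Per 1000 counts of CGA there were 6.27 and 6.18 EZH2 counts in the follicular pools, against 16.4 and 24.5 in the anestrus pools, so EZH2 differed more between the groups than CGA did. Per 1000 counts of TSHB there were 6836 and 3906 EZH2 counts in the follicular pools, against 179 and 311 in the anestrus pools, so EZH2 differed less than TSHB.

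Of the 10 tanycyte markers tested, 1 was called lower in the follicular phase, the thyroid hormone deiodinase DIO2, and 2 had an unadjusted p under 0.05. The tanycyte list summed to 1222 and 1133 CPM in the follicular pools, against 1582 and 1464 CPM in the anestrus pools. Meningeal markers summed to 772 and 856 CPM in the follicular pools, against 1321 and 1152 CPM in the anestrus pools, with 5 of 5 log2 fold changes negative, 0 called and 4 with an unadjusted p under 0.05. Astrocyte markers went the other way, at 9737 and 10734 CPM in the follicular pools, against 6035 and 6139 CPM in the anestrus pools. GFAP was the 1 called of 8, and 5 had an unadjusted p under 0.05. Oligodendrocyte markers summed to 3459 and 4674 CPM in the follicular pools, against 2915 and 1865 CPM in the anestrus pools, with 0 of 9 called and 8 with an unadjusted p under 0.05. Oligodendrocyte precursor markers summed to 316 and 354 CPM in the follicular pools, against 251 and 233 CPM in the anestrus pools. All 6 precursor markers had positive log2 fold changes, with 0 called and 3 with an unadjusted p under 0.05. The microglia, endothelium and ependyma lists had 0 called and median log2 fold changes of 0.22, 0.075 and 0.58. The part of any of these cell types in the EZH2 values was not tested. Without follicular pool 1 CGA, DIO2 and GFAP were no longer called, although their log2 fold changes were -1.43, -1.25 and 1.03 there and -1.30, -1.20 and 1.01 over the 4 pools. Those of TSHB and EZH2 were -7.18 and -3.12 without follicular pool 1, and -7.45 and -2.98 over the 4 pools.

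The genes whose pattern over the 4 pools was nearest to that of EZH2 were found by the Euclidean distance between log2 CPM profiles centred on their mean over the pools. In order of distance the first 8 with a gene name were NEK2, FNDC7, CLRN1, ERCC6L, SYCE1, IL17RB, VMO1 and TPH1, at distances of 0.55 to 1.12. The distances of the other 9 PRC2 subunits were 2.76 to 3.51, so none of them was near EZH2 by this measure. With 4 pools the measure mostly reflects the size of the difference between groups, and nearness carries no test.

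NEK2, a kinase that splits the centrosomes before mitosis, was at 1.26 and 1.10 CPM in the follicular pools, against 5.81 and 8.71 CPM in the anestrus pools. ERCC6L, a DNA translocase of mitotic chromosomes, was at 0.98 and 1.10 CPM in the follicular pools, against 4.55 and 7.43 CPM in the anestrus pools. Both resembled EZH2 in being higher in anestrus pool 2 than in anestrus pool 1, at much lower counts. IL17RB, TPH1 and, slightly, CLRN1 and SYCE1 were also higher in anestrus pool 2, while FNDC7 and VMO1 were lower there. The trait therefore does not single out the mitotic genes. FNDC7, a protein with fibronectin type III domains, was at 4.88 and 4.06 CPM in the follicular pools, against 25.9 and 24.1 CPM in the anestrus pools. TPH1, the tryptophan hydroxylase of serotonin and melatonin synthesis, was at 1.42 and 2.85 CPM in the follicular pools, against 8.90 and 12.3 CPM in the anestrus pools. The cytokine receptor gene IL17RB was at 4.76 and 3.43 CPM in the follicular pools, against 15.4 and 21.5 CPM in the anestrus pools, and VMO1 was at 12.1 and 8.07 CPM in the follicular pools, against 95.8 and 48.0 CPM in the anestrus pools. CLRN1, a membrane protein of sensory cells, had 3 and 1 counts in the follicular pools, against 13 and 17 in the anestrus pools. SYCE1, of the synaptonemal complex of meiosis, had 1 and 2 counts in the follicular pools, against 13 and 17 in the anestrus pools, so the place of both genes rests on very few reads.

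**Figure D5:**
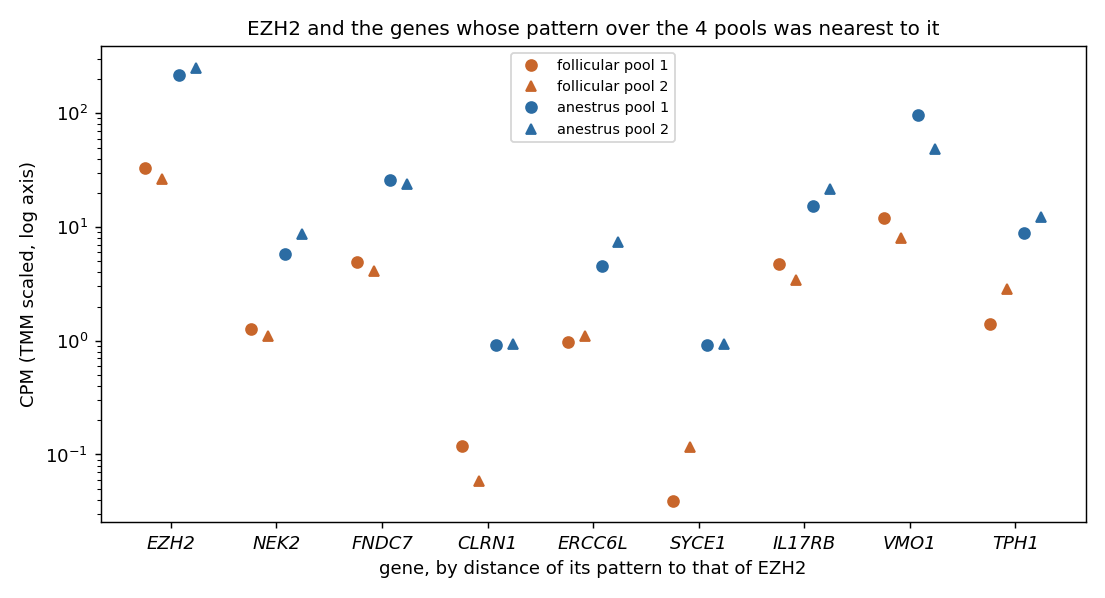
Level in CPM (log axis) of EZH2 and of the 8 named genes with the nearest pattern, in order of distance from left to right, with orange follicular and blue anestrus pools, circles for pool 1 and triangles for pool 2. Every gene shown was lower in both follicular pools than in both anestrus pools, and CLRN1 and SYCE1 rest on 1 to 3 follicular counts per pool. Heights are not scaled for transcript length, so they are not compared between genes.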

How the data were processed

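The deposited table holds raw counts, whole numbers of reads for each gene without scaling, and its file name calls them raw. Per the labels' protocols, the kit was the Truseq stranded mRNA sample prep kit. Reads were aligned and counted with tools named in the submitters' processing notes, among them featureCounts 2.0.0, TopHat2 2.1.1 and Bowtie2 2.3.5.1. The genome build, the annotation, the strand setting and how multi-mapping reads were treated are not given in these sources, so no coordinates are printed. Pools are numbered as in the library names, which the table carries, and the titles give the anestrus pools the other numbers.

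Genes were kept by edgeR's filterByExpr (minimum count 10, minimum total 15), normalized by TMM and fitted in edgeR (version 4.0.16, R 4.3.3) with robust glmQLFit and glmQLFTest on 2 residual degrees of freedom, with Benjamini-Hochberg adjustment over the 16756 genes and a threshold of 0.05. The fit draws the variance of each gene towards a trend over all genes. P-values, SEs and intervals thus measure spread between pools, but not that of the gene's own 2 pools per group alone. The edgeR intervals are accordingly narrower than 2 degrees of freedom alone would give. The counts differed between pools of a group by more than sampling noise (chi-square per degree of freedom 18.9 and 29.6). Alternatives used limma 3.58.1 and DESeq2 1.42.0.

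The members, the 9 pathway lists and the 11 marker lists were chosen with earlier results of these data known. Of 256 list entries, 244 matched a symbol and the other 12 are not analysed here. Genes named were all members, the called genes and the 3 with the smallest p of each pathway list, up to 2 called per marker list, and the 8 nearest in pattern to EZH2 (log2 CPM, prior count 2). The results of 2 genes that this rule names are not reported here. Further genes are named as chosen after their values were seen.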

Additional observations from a re-analysis of the deposited data

How the results depend on the processing

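EZH2 was called, lower in the follicular phase, under every alternative that kept all 4 pools, and in each it was the 1 PRC2 subunit called. Its log2 fold changes ran from -3.12 to -2.81 over all 13 alternatives. The alternatives re-use the libraries on which EZH2 was selected. They show how far the value depends on processing and are no further evidence for the difference. The EZH2 share of the joint EZH1 and EZH2 counts differed by -47.0 to -43.6 percentage points when 1 pool was left out. The number of genes called over the table was less stable, at 34 in the analysis above, 300 with no count filter, 143 in DESeq2's Wald test and 4 to 810 when 1 pool was left out (follicular pool 1 left out gave 4, follicular pool 2 95, anestrus pool 1 810 and anestrus pool 2 583). Where 1 pool was left out, the lone pool of its group was assumed to vary like the other group. With a replicate block on the pool number it was 90 by library name and 130 by title, and the block changed no call of a subunit. Same-numbered pools deviated together by library name (r = 0.26 over genes), but with 2 pools per group and no label that pairs them the numbers were not taken as pairs. Of the pathway lists, 1 gene was called with no count filter and 1 in DESeq2 (DPF1 in both), and 0 to 1 when 1 pool was left out (DPF1 without anestrus pool 1, and PCGF5, named after its value was seen, without anestrus pool 2). The cause of these shifts was not tested. The sign of some uncalled genes depended on 1 pool. Leaving out 1 pool gave log2 fold changes from -0.26 to 0.12 for EZH1, -0.34 to 0.032 for SUZ12, -0.18 to 0.056 for RBBP4, -0.25 to 0.17 for MTF2, -0.28 to 0.45 for AEBP2, -0.26 to 0.10 for EP300, -0.39 to 0.18 for KDM6A, -0.36 to 0.24 for LCOR, -0.23 to 0.49 for LCORL and -0.21 to 0.068 for PHF1. With 2 pools per group, small differences of the other subunits were not detectable.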

Other observations

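The genes next to EZH2 by RefSeq's annotation of the goat assembly ARS1.2 are PDIA4, a protein disulfide isomerase of the endoplasmic reticulum, and CUL1, the scaffold of a ubiquitin ligase. They were looked up for their position, after the values of EZH2 were seen. PDIA4 was at 147 and 114 CPM in the follicular pools, against 189 and 170 CPM in the anestrus pools, with a log2 fold change of -0.46 ± 0.18 (adjusted p = 0.482, edgeR). CUL1 was at 86.5 and 92.8 CPM in the follicular pools, against 113 and 106 CPM in the anestrus pools, with -0.29 ± 0.16 (adjusted p = 0.692, edgeR). Neither was called, although both were lower in each follicular pool than in each anestrus pool. Since 38.3% of all genes tested showed no overlap between groups, nothing is read from this about the place of EZH2. RBBP4 overlaps SYNC in that annotation, and since the strand setting of the counting is unknown, reads of the overlap cannot be assigned with certainty. SYNC was at 9.28 and 13.2 CPM in the follicular pools, against 10.6 and 11.7 CPM in the anestrus pools.

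The balance within pairs of related subunits was also read from counts in the same pool. RBBP4 supplied 54.2 and 57.4% of the joint RBBP4 and RBBP7 counts in the follicular pools, against 51.7 and 54.8% in the anestrus pools, and the groups overlapped. MTF2 supplied 85.1 and 87.8% of the joint MTF2 and PHF19 counts in the follicular pools, against 90.5 and 90.8% in the anestrus pools. The MTF2 groups did not overlap, but the exact Clopper-Pearson 95% intervals of follicular pool 2 (85.5 to 89.8%) and anestrus pool 1 (88.1 to 92.6%) did.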
